A study of Columba livia with 10 samples.

Results

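The 10 genes described here belong to the circadian clock and its output. They are CLOCK, NPAS2, PER2, PER3, NR1D1, NR1D2, DBP, TEF, BHLHE40 and BHLHE41, chosen by name out of 22547 genes in each count table. All 10 were found in the tables, and all 10 passed the filter on low counts. RNA was sequenced from the cerebellum of racing homers, domestic pigeons (Columba livia) trained to fly back to their loft. Of these birds 5 were killed on coming home from a 300 km competition flight and form the race group. The control group held 5 birds of matching age from the same loft that stayed at home on the race day. All birds, in both groups, were fed for competition and trained by the widowhood method, in which mates are kept apart before a flight. The sources used here do not give the hour at which each bird was killed, or its sex.

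The clock is a loop of transcription factors that feed back on their own genes over the day, described here as it is known from mouse and chicken. CLOCK or its relative NPAS2 binds DNA with BMAL1 and switches on the PER, CRY, NR1D, DBP and BHLHE40 genes. PER and CRY proteins block that activation, the nuclear receptors NR1D1 and NR1D2 (REV-ERB alpha and beta) repress BMAL1, and DBP and TEF pass the rhythm on to output genes. Because of this loop, transcripts of the clock change in level with the hour in most tissues, and in birds the retina, the pineal gland and the hypothalamus hold the leading oscillators.

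Tables and labels leave several limits that bear on every direction below. Gene counts summed to between 17953704 and 23344086 per library. Each clock gene had between 225 and 6003 reads in every library, so counting error is small beside the spread between birds. In 9 of 10 samples the number in the table's name is not the number in the sample's title. Groups here follow the record that holds each table, and following the titles would put 6 tables in the other group. More genes of the female-specific W chromosome were expressed in control 3, control 4 and control 5, with 93 to 95 of 195 at 1 CPM (a count scaled to a common library size) or more, against 24 to 33 in the other 7 libraries. Control 1 had the lowest TMM scaling factor, 0.794, and the lowest median Spearman correlation with the other libraries, 0.879. The summed level of forebrain neuron markers was 286 CPM in control 4 and 23.0 to 42.5 CPM elsewhere. The summed level of granule cell markers was lowest in control 4, at 1314 CPM against 1877 to 2614 CPM elsewhere. PAX6, NEUROD1, ZIC1 and CBLN1 of that list were lowest in control 4. GABRA6 and ETV1 were lowest in control 1, at 24.0 and 248 CPM, against 53.5 and 348 CPM in control 4. Purkinje cell markers summed to 1233 CPM in control 4 and to 1309 to 1844 CPM elsewhere. PCP4 of the Purkinje list was highest in control 4, at 119 CPM. The pineal list summed to 19.2 CPM in race 4 (mostly from ASMT) and to at most 8.46 CPM elsewhere. The pineal genes AANAT, OPNP and RBP3 were at 0 in at least 5 libraries. None of the 10 clock genes is annotated to the Z or W chromosome in RefSeq's annotation of bColLiv1.pat.W.v2, where DBP lies on an unplaced scaffold. Levels are compared between libraries for each gene and never between genes, since transcript lengths were not used. In whole tissue, fewer cells of a type and less RNA per cell cannot be told apart.

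Race and control birds were compared first, to ask whether clock transcripts differed after the flight. None of the 10 genes passed, and the control and race values of every one overlapped. The lowest adjusted p among the clock genes was 0.352 (edgeR quasi-likelihood test, Benjamini-Hochberg over all 14172 genes tested). Over all genes the share past the threshold of 0.05 was 0%, so the test called nothing anywhere. At an unadjusted p under 0.05, 0 clock genes stood higher and 2 of 10, DBP and BHLHE40, stood lower in race birds. The same share over all genes was 6.19% higher and 7.14% lower. The median log2 fold change was 0.10 over the 10 clock genes and -0.03 over all genes tested, with 6 of the 10 positive. Groups that did not overlap were found in 4.33% of all genes and in 0 clock genes.

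**Figure D1:**
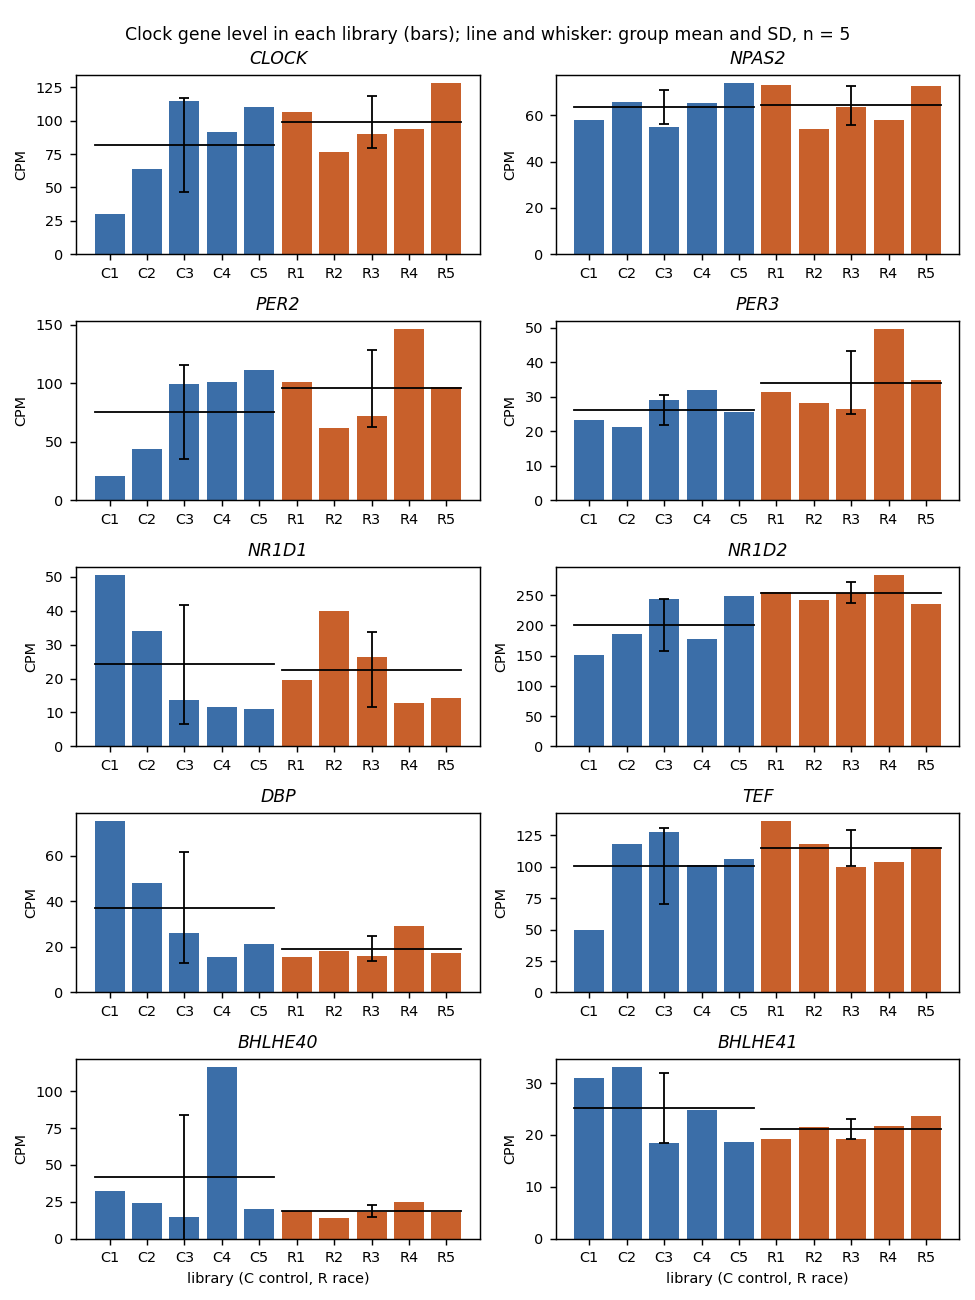
Bars show the level of each clock gene in CPM in each library (C1 to C5 control, R1 to R5 race), with lines and whiskers for the group mean and SD (n = 5; the whisker of BHLHE40 is cut at 0). Control and race values overlap in every panel, and C1 and C2 are apart from the other controls for CLOCK, PER2, NR1D1 and DBP.

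CLOCK and NPAS2 are the DNA-binding partners of BMAL1 that drive the loop. CLOCK stood at 30.1, 64.0, 115, 91.4 and 110.1 CPM in control 1 to control 5. In race 1 to race 5 it stood at 107, 76.8, 89.8, 93.9 and 128 CPM. Control 1 and control 2 held the lowest values of all, and the other 3 controls lay within the race range. The means were 82.1 ± 35.2 CPM in control against 99.1 ± 19.4 CPM for the race birds (SD, n = 5 each). The fitted log2 fold change of CLOCK, race over control, was 0.27 ± 0.31 (SE; edgeR adjusted p = 0.681). NPAS2 was the steadiest member, at 57.9, 65.6, 54.8, 65.1 and 73.8 CPM in the controls and 73.1, 54.1, 63.5, 58.0 and 72.4 CPM in the race birds. Its highest library was 1.36 times its lowest, against 4.25 times for CLOCK. The log2 fold change of NPAS2 was 0.02 ± 0.15 (edgeR adjusted p = 0.966).

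PER2 and PER3 encode the period proteins, which enter the nucleus with cryptochromes and block CLOCK and BMAL1. PER2 stood at 20.8, 44.2, 99.0, 101 and 111 CPM in control 1 to control 5. Race birds had 101, 62.0, 72.1, 146 and 96.3 CPM. Its range was 7.01 times over the 10 libraries, with the lowest values in control 1 and control 2 and the highest in race 4. The log2 fold change of PER2 was 0.34 ± 0.40 (edgeR adjusted p = 0.693). PER3 stood at 23.3, 21.1, 29.0, 32.0 and 25.7 CPM in the controls and 31.3, 28.3, 26.5, 49.6 and 34.8 CPM in the race birds. Race 4 was again the highest, and without it the log2 fold change of PER3 was 0.20 in place of 0.38 ± 0.20 (edgeR adjusted p = 0.427). In race 4 the glucocorticoid-responsive genes FKBP5, TSC22D3, ZBTB16, SGK1 and KLF9 summed to 1074 CPM, against 321 to 778 CPM in the other race birds and 302 to 609 CPM in controls. That sum was mostly FKBP5 and ZBTB16, at 450 and 322 CPM. SGK1 and KLF9 were also highest in race 4, while TSC22D3 stood at 201 CPM there and was highest in control 1, at 373 CPM. Race 3 and race 2 had the next highest sums of the race birds, 778 and 541 CPM, and the lowest PER2 and PER3 among them. The part of glucocorticoid-responsive genes in the PER2 and PER3 levels of race 4 was not tested.

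NR1D1 and NR1D2 encode nuclear receptors that bind heme and repress BMAL1 and other clock genes. NR1D1 stood at 50.4, 34.1, 13.7, 11.7 and 10.9 CPM in control 1 to control 5. In race 1 to race 5 it stood at 19.5, 39.9, 26.3, 12.8 and 14.4 CPM. High values occurred in both groups, in control 1, control 2, race 2 and race 3. The log2 fold change of NR1D1 was -0.10 ± 0.47 (edgeR adjusted p = 0.936), and its sign turned in 4 of the 10 fits that left out a single library. NR1D2 stood at 151, 186, 243, 178 and 249 CPM in the controls and at 255, 243, 254, 283 and 236 CPM in the race birds. All 5 race values lay within 1.20 times of each other and above control 1, control 2 and control 4. The means of NR1D2 were 201 ± 42.9 and 254 ± 17.9 CPM, a log2 fold change of 0.34 ± 0.17 (edgeR adjusted p = 0.401).

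DBP and TEF are leucine zipper factors of the PAR family, which carry the rhythm from the loop to output genes. DBP stood at 75.1, 48.2, 26.2, 15.4 and 21.4 CPM in the controls. Race birds had 15.5, 18.1, 15.9, 29.0 and 17.5 CPM. The 2 highest values belonged to control 1 and control 2, while control 3 and control 5 lay inside the race range and control 4 just under it. The control mean of DBP was 37.2 ± 24.5 CPM and the race mean 19.2 ± 5.59 CPM, with a log2 fold change of -0.96 ± 0.39 (edgeR adjusted p = 0.352). Markers of oligodendrocytes, which myelinate axons, summed to 2461 to 5625 CPM in controls and 1693 to 3923 CPM in race birds, and markers of astrocytes and Bergmann glia to 1290 to 3273 CPM, highest in control 1, and 874 to 1309 CPM. The astrocyte sum in control 1 was mostly GFAP, at 2675 CPM, while SLC1A3 and AQP4 of the same list of 5, at 185 and 66.9 CPM, were lower there than in any other library. The part of these markers in the DBP levels was not tested. TEF stood at 49.5, 118, 128, 102 and 106 CPM in the controls and at 136, 118, 100.0, 103 and 116 CPM in race birds. Control 1 alone was low for TEF, and without it the log2 fold change was 0.00 in place of 0.19 ± 0.23 (edgeR adjusted p = 0.701).

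BHLHE40 and BHLHE41 (DEC1 and DEC2) encode repressors that compete with CLOCK and BMAL1 for their sites, and BHLHE40 also responds to low oxygen and to neuronal activity. BHLHE40 stood at 32.6, 24.1, 14.4, 116 and 20.3 CPM in the controls and at 18.8, 13.8, 17.9, 24.9 and 18.1 CPM in race birds. Control 4, the library with forebrain markers, was 3.56 times the next highest library. Immediate early genes, which neurons switch on when active, summed to 804, 198, 172, 507 and 797 CPM in control 1 to control 5. In race birds they summed to 123 to 320 CPM, a range that holds control 2 and control 3. ARC, a gene of that list, was highest in control 4, at 127 CPM against at most 53.9 CPM elsewhere. The other measured genes of the list were not: FOS, EGR1, NR4A1 and NR4A2 were highest in control 1 and NR4A3 in control 5. FOS stood at 31.3 CPM in control 4 against 184 CPM in control 1. The part of forebrain markers and immediate early genes in the BHLHE40 level of control 4 was not tested. The log2 fold change of BHLHE40 was -1.15 ± 0.50 (edgeR adjusted p = 0.363) with all libraries and -0.29 without control 4. BHLHE41 stood at 30.9, 33.0, 18.4, 24.8 and 18.7 CPM in the controls and at 19.2, 21.4, 19.2, 21.8 and 23.7 CPM in race birds. For BHLHE41, control 4 lay above all race birds and below control 1 and control 2. The log2 fold change of BHLHE41 was -0.26 ± 0.20 (edgeR adjusted p = 0.553).

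**Figure D2:**
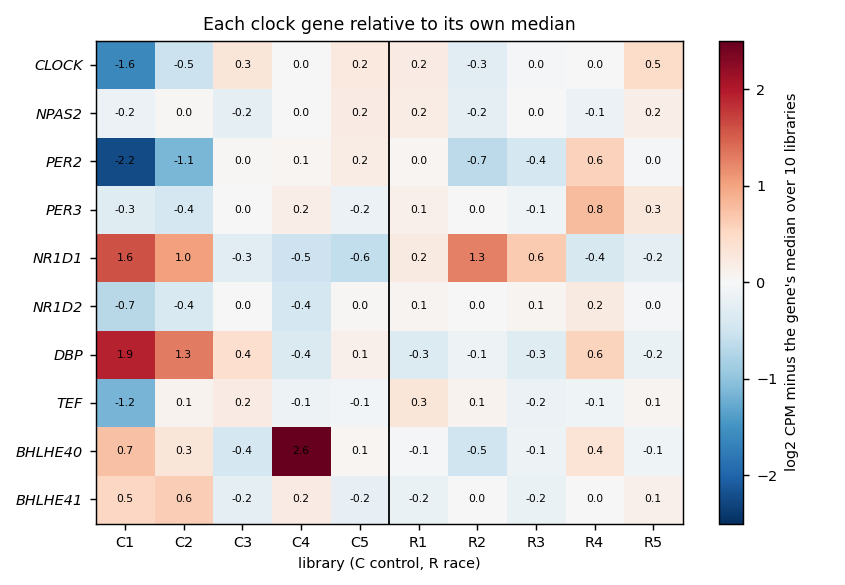
Each cell gives the log2 CPM of a clock gene in a library minus that gene's median over the 10 libraries, with controls left of the line and race birds right of it. C1 and C2 are low for CLOCK and PER2 and high for NR1D1 and DBP, BHLHE40 is high in C4, and NPAS2 is nearly level throughout.

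Leaving out control 1 and control 4 in turn showed how far single birds carry these values. Without control 1 the log2 fold changes of CLOCK, PER2, DBP and NR1D1 were 0.04, 0.09, -0.55 and 0.34, so CLOCK, PER2 and DBP moved toward 0 and NR1D1 changed sign. Without control 4 those of CLOCK, PER2, DBP and NR1D1 were 0.31, 0.47, -1.15 and -0.27. With both left out BHLHE40 stood at -0.09 and DBP at -0.75 (edgeR adjusted p = 0.327). In none of these 3 fits did a clock gene pass by edgeR, while the share of all genes past the threshold was 0% without control 1, 0.00699% without control 4 and 0.277% without both. At an unadjusted p under 0.05, 1 clock gene stood lower and 0 higher in each: BHLHE40 without control 1, and DBP without control 4 or without both. The shares of all genes higher and lower at that p were 6.99% and 8.21% without control 1, 6.63% and 8.04% without control 4, and 6.72% and 5.89% without both.

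The 2 controls that lay apart for CLOCK, PER2, NR1D1 and DBP were also those with a low W-linked count, 27 and 28 genes at 1 CPM or more. Race birds, in which that count was 24 to 33, were therefore also compared with control 1 and control 2 alone. In that comparison 5 of 10 clock genes passed, where 23.2% of 14697 genes did (10.5% higher and 12.7% lower). Control 1 and control 2 had already been seen to lie apart for CLOCK, PER2 and DBP in these same data. Both had also been seen below all race birds for NR1D2 and above all of them for BHLHE41. Calls of these 5 genes are therefore no independent result. The count of clock genes that passed is not read as an excess. PER2 rose by a log2 of 1.55 ± 0.40 in race birds (adjusted p = 0.0273), CLOCK by 1.07 ± 0.32 (0.0392) and NR1D2 by 0.60 ± 0.18 (0.0444), all by edgeR's quasi-likelihood test. DBP was lower by a log2 of -1.68 ± 0.27 (edgeR adjusted p = 0.0114) and BHLHE41 by -0.60 ± 0.18 (edgeR adjusted p = 0.0411). NR1D1 stood at -0.90 ± 0.40 and BHLHE40 at -0.60 ± 0.25, and neither passed (edgeR adjusted p = 0.119 and 0.0988). With control 1, the library that stood apart, also left out, only control 2 remained and these calls were lost. The part of control 1 and that of the smaller group in this loss was not tested. Against control 2 alone 0 of the 10 clock genes passed by edgeR, where 1.96% of 15086 genes did, and against control 1 alone 7 passed, where 44.7% of 15186 genes did. Against control 2 alone, DBP stood at -1.35 ± 0.31 (edgeR adjusted p = 0.0696), BHLHE41 at -0.67 ± 0.19 (0.106), NR1D2 at 0.43 ± 0.17 (0.196), PER2 at 1.09 ± 0.44 (0.207) and CLOCK at 0.61 ± 0.27 (0.244). The values of CLOCK, PER2, NR1D2 and DBP were thus nearer to 0 than against both controls, and that of BHLHE41 was not. PER2 and NR1D2 stood higher and DBP and BHLHE41 lower there at an unadjusted p under 0.05, where 12.4% of all genes stood higher and 8.87% lower. In these fits the lone control is assumed to vary like the race birds. In control 1 and control 2, HTSeq assigned 15.1% to 15.7% of reads to no annotated feature, against 17.8% to 20.8% in the other 8 libraries. Such reads need not lie outside genes.

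Against the other 3 controls, with the high W-linked counts, none of the 10 clock genes passed in race birds. PER2 stood at -0.14 ± 0.24, CLOCK at -0.11 ± 0.17, DBP at -0.15 ± 0.25 and NR1D1 at 0.88 ± 0.36 (edgeR adjusted p from 0.235 for NR1D1 to 0.799 for PER2). The lowest adjusted p, 0.224, belonged to BHLHE40, at -1.43 ± 0.56, and control 4 was among those 3 controls. In that comparison 0.727% of 14577 genes passed. At an unadjusted p under 0.05, NR1D1 stood higher and BHLHE40 lower, where 8.18% of all genes stood higher and 10.3% lower. The part of W-linked expression in the difference between these controls was not tested.

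**Figure D3:**
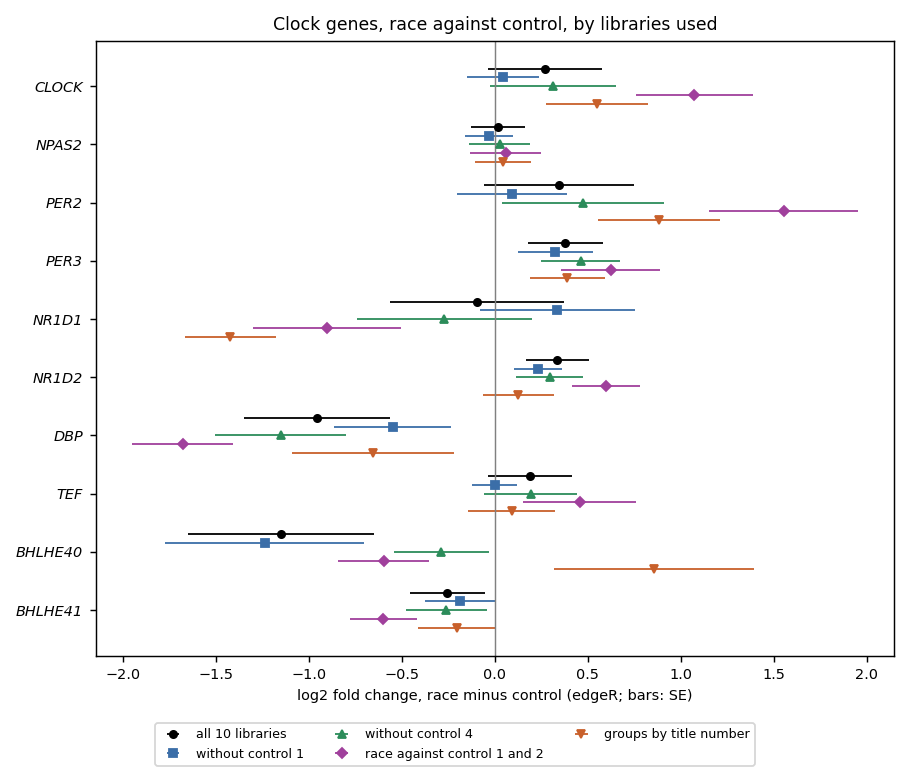
Points give the log2 fold change of each clock gene (race minus control) with its SE, under 5 choices of libraries or groups. PER2, CLOCK and DBP lie farthest from 0 against control 1 and control 2 alone, NR1D1 lies at -1.42 by title numbers, and BHLHE40 moves to -0.29 without control 4.

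The link between tables and birds was examined next, because the titles and the table names disagree. With groups taken from the title numbers, race holds control 3, control 4, control 5, race 4 and race 5 of the naming used here. That race group has all 3 libraries with high W-linked counts. The part of W-linked expression in the clock gene values by title numbers was not tested. NR1D1 then stood at 10.9 to 14.4 CPM in all 5 race birds and at 19.5 to 50.4 CPM in all 5 controls, so the groups did not overlap, as in 2.61% of all genes. The log2 fold change was -1.42 ± 0.25. It did not pass by edgeR (adjusted p = 0.125) or by limma voom (adjusted p = 0.191), and it passed by DESeq2 (adjusted p = 0.000111). The shares of all genes past the threshold were 0.0212%, 0.00706% and 0.783% by these tools. PER2 stood at 0.88 ± 0.33 and CLOCK at 0.55 ± 0.28 by title numbers, and no clock gene other than NR1D1 passed by any of the 3 tools, of which DESeq2 gave no p for BHLHE40. By edgeR, PER2 stood higher and NR1D1 lower at an unadjusted p under 0.05, where 4.17% of all genes stood higher and 7.76% lower. Limma voom had CLOCK and PER2 higher and NR1D1 lower, where 4.29% stood higher and 5.6% lower. BHLHE40 turned to 0.85 ± 0.54, since control 4 would then be a race bird. By the record of each table DESeq2 called 0 clock genes, with a lowest adjusted p of 0.191, and 1.84% of all genes. At an unadjusted p under 0.05 it too had DBP and BHLHE40 lower, where 6.71% of all genes stood higher and 9.65% lower. Limma voom, by the record of each table, had 0 of the 10 clock genes at that p, where 1660 of 14172 genes were. Its unadjusted p was 0.0865 for DBP and 0.152 for BHLHE40. With an offset for gene span, edgeR also had 0 of the 10, where 1855 of 14172 genes were.

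How the clock genes varied together between birds does not depend on the group of any bird. All 45 pairs were compared over the 10 libraries on log2 CPM, and 3 passed a permutation test of Pearson's r after Benjamini-Hochberg adjustment. The same share over pairs of other genes was not computed, so this count does not set the clock genes apart. PER2 and NR1D1 ran opposite to each other, with r = -0.88 (permutation adjusted p = 0.0130) and Spearman's rho = -0.92 (permutation adjusted p = 0.0238). It was the only pair that passed by both measures. Control 1, with the highest NR1D1, had the lowest PER2, and race 2 and race 3, with the highest NR1D1 of the race birds, had the lowest PER2 among them. Control 1 and control 2 lay farthest from the median of PER2, and without them r was -0.85. With 1 library left out r ran from -0.92 to -0.86, and with each library taken relative to its group mean it was -0.95. Among the 7 libraries with low W-linked counts r was -0.90, with an exact permutation p of 0.00258 that did not pass over the 45 pairs (adjusted p = 0.0580).

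**Figure D4:**
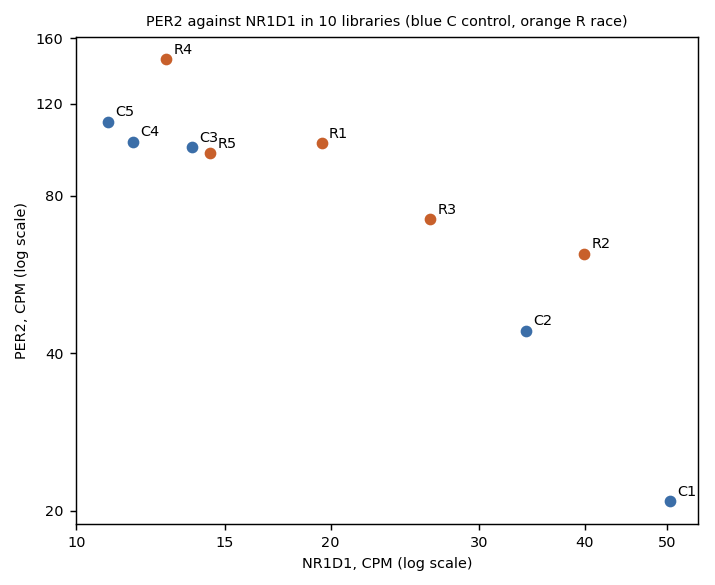
Each point is a library, with NR1D1 on the x axis and PER2 on the y axis, both in CPM on log scales. PER2 is lower where NR1D1 is higher, from C5 with 10.9 CPM of NR1D1 and 111 CPM of PER2 to C1 with 50.4 and 20.8 CPM.

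The other pairs that passed both involved CLOCK. CLOCK and PER2 had r = 0.92 (permutation adjusted p = 0.0253) but rho = 0.64, which did not pass (permutation adjusted p = 0.378). Without control 1 and control 2 their r was 0.46, so over these values the relation rests largely on those libraries. With each library taken relative to its group mean, r of CLOCK and PER2 was 0.90, and 0.75 without control 1 and control 3. Their rho did not pass there either (permutation adjusted p = 0.145). CLOCK and NR1D1 had r = -0.79 (permutation adjusted p = 0.0253) and rho = -0.70 (permutation adjusted p = 0.378), with r = -0.63 without control 1 and control 2. Relative to group means their r was -0.86, and -0.85 without control 1 and control 3, while rho did not pass (permutation adjusted p = 0.101). CLOCK and DBP had r = -0.81 (permutation adjusted p = 0.0784), which turned to 0.16 without control 1 and control 2.

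The 10 genes form 5 pairs of related proteins, and the ratio within each pair asks whether relatives moved apart. No ratio passed between race and control birds when all assignments of 5 and 5 libraries were enumerated (exact permutation, two-sided, smallest possible p 0.00794). DBP to TEF had the largest difference, its log2 ratio standing at -1.60 ± 1.34 in controls against -2.60 ± 0.47 in race birds (SD, n = 5 each). That is a difference of -1.01 (exact permutation p = 0.159, adjusted over 5 pairs 0.688). Control 1 stood at 0.60 for DBP to TEF and control 2 at -1.29, while the other 3 controls lay between -2.72 and -2.28. BHLHE40 to BHLHE41 differed by -0.51 (exact permutation p = 0.413), CLOCK to NPAS2 by 0.38 (0.349), NR1D1 to NR1D2 by -0.30 (0.667) and PER2 to PER3 by 0.17 (0.817). By title numbers NR1D1 to NR1D2 differed by -1.49 and passed (exact permutation p = 0.00794, the smallest possible, adjusted 0.0397). NR1D1 by itself did not overlap between those groups, and the log2 fold change of NR1D2 was 0.13. The ratio thus repeats the split of NR1D1 and is no separate result.

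**Figure D5:**
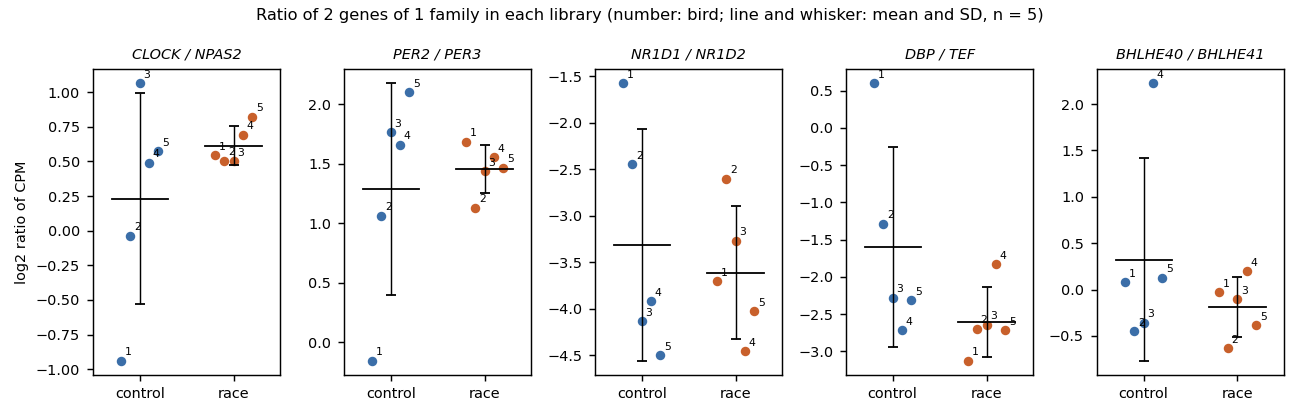
Points give the log2 ratio of CPM between a pair of related clock genes in each library, numbered by bird, with the mean and SD of each group (n = 5). Race birds are close together for CLOCK to NPAS2 and PER2 to PER3, and control 1 and control 2 lie at 1 end of the control range in the CLOCK, PER2, NR1D1 and DBP panels.

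Relatives were also compared with each other across birds. PER2 and PER3 had r = 0.72 (permutation adjusted p = 0.109), CLOCK and NPAS2 r = 0.40 (0.387) and BHLHE40 and BHLHE41 r = 0.42 (0.375). NR1D1 and NR1D2 had r = -0.47 (0.304) and DBP and TEF r = -0.67 (0.170), both with a negative sign. None of these 5 passed the permutation test.

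The rest of the clock was taken from a list of 48 further genes: partners, kinases, ubiquitin ligases and cofactors. Of these 43 were tested, and 0 passed by edgeR. Their median log2 fold change was 0.07, with 25 positive and 18 negative. At an unadjusted p under 0.05, 3 of the 43 stood higher and 0 lower in race birds, where 6.19% of all genes stood higher and 7.14% lower. The groups did not overlap for 2 of the 43, where that held for 4.33% of all genes. SIRT1, a deacetylase that acts on the clock proteins, stood at 31.0, 47.0, 54.8, 45.2 and 49.0 CPM in the controls and at 62.7, 70.3, 68.7, 71.0 and 66.7 CPM in race birds. All 5 race values of SIRT1 lay above all controls, with a log2 fold change of 0.58 ± 0.16 (edgeR adjusted p = 0.272; DESeq2 adjusted p = 0.0360). PRKAA1, a catalytic subunit of the energy sensor AMPK and a Z-linked gene, did not overlap between the groups either, at 0.68 ± 0.23 (edgeR adjusted p = 0.326). TIPIN, a partner of TIMELESS, stood at 0.44 ± 0.18 (edgeR adjusted p = 0.345). By title numbers SIRT1 and PRKAA1 stood at 0.04 and 0.01.

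Among direct partners of the 10 genes, BMAL1 had means of 50.8 ± 10.7 CPM in controls and 59.5 ± 6.11 CPM in race birds, and its log2 fold change was 0.23 ± 0.17 (edgeR adjusted p = 0.539). BMAL2, its relative, stood at 0.65 ± 0.34, CRY1, a cryptochrome, at 0.21 ± 0.17 and NAMPT, an enzyme of NAD synthesis under clock control, at 0.52 ± 0.26. RORA and RORB, receptors that oppose the NR1D proteins, stood at 0.32 ± 0.26 and -1.42 ± 0.74, and the Z-linked RORB reached 13.9 CPM in control 4 against at most 2.18 CPM elsewhere. NFIL3, a Z-linked gene whose product opposes DBP, and HLF, the third PAR factor, stood at -0.19 ± 0.25 and 0.05 ± 0.25. Without control 4 RORB and NFIL3 stood at 0.06 and 0.01, and by title numbers at 1.81 and 0.69. NFIL3 passed in that arrangement by DESeq2 (adjusted p = 0.0245) and not by edgeR (adjusted p = 0.378). That arrangement puts all 3 libraries with high W-linked counts in the race group, and the part of sex chromosomes in the RORB and NFIL3 values was not tested.

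Against control 1 and control 2 alone, 9 of the 43 passed by edgeR, where 23.2% of all genes did, so this count is not read as an excess. These 2 controls had already been seen to lie apart in these same data, so these calls too are no independent result. BMAL2 rose by a log2 of 1.57 ± 0.32, FBXL21, an F-box protein that targets cryptochromes, by 1.02 ± 0.25, SIRT1 by 0.80 ± 0.21 and TIPIN by 0.69 ± 0.21. Against control 2 alone BMAL2 stood at 1.66, SIRT1 at 0.51 and TIPIN at 0.59. On the lower side were RACK1 at -1.13, the ubiquitin ligase adaptor DDB1 at -1.12, the phosphatase subunit PPP1CA at -1.0, TIMELESS at -0.83 and the kinase GSK3B at -0.78. BMAL1, at 0.55 ± 0.19, did not pass (edgeR adjusted p = 0.0600).

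For each clock gene the genes of most similar pattern over the 10 libraries were taken from 12609 genes (average log2 CPM 1 or more). CLOCK was most like OGFRL1, TET2 and PUM2, each at r = 0.99, and PER2 most like GTF2H3, TFB2M and RALYL at r = 0.98 each. NR1D1 was most like NOTCH1, LOC102084072 and SPRYD3, at 0.95, 0.94 and 0.94. DBP was most like MYRF, a transcription factor of myelinating cells, at 0.98, then STX8 and ECSIT at 0.96 each. TEF was most like CCSER1, ZBTB20 and ZFYVE28 (0.98, 0.98 and 0.97), and NR1D2 most like GABRR1, DTX3L and DAPK2 (0.97, 0.97 and 0.96). PER3 was most like GALNT8, CPEB4 and NUBP1 (0.94, 0.93 and 0.92), and NPAS2 had the weakest likeness, to CDO1, PIK3R3 and AFG2A (0.85, 0.84 and 0.83). BHLHE40 was most like PRR7, SYNC and SYNDIG1L (0.96, 0.95 and 0.95), and BHLHE41 most like ZFHX3 at 0.97, then PLPP3 and GPR160 at 0.89 each. No clock gene was among the 3 most similar to another. These likenesses are descriptions over 10 libraries that include control 1 and control 4, whose profiles stood apart.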

How the data were processed

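The authors deposited unnormalized gene counts, with a table for each sample. HTSeq 0.13.5, STAR 2.7.10a and fastp 0.23.2 appear among the tools in the submitters' processing notes. Build, annotation and strand setting: not given in the sources used here. Rows that name no gene held 18.1% to 23.4% of counts and were left out of library sizes and tests. Multiply aligned reads, 2.37% to 3.90%, were not counted to genes.

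Groups follow the treatment label of the record holding each table. Genes were filtered by filterByExpr (minimum count 10), scaled by TMM and tested by edgeR 4.0.16's quasi-likelihood test in R 4.3.3, with p-values adjusted by Benjamini-Hochberg. CPM values use the TMM-scaled library size, except for the W-linked counts, where CPM used the unscaled sum of gene counts. Log2 CPM for ratios and correlations had a prior count of 2, and correlations used 100000 resamples, or all pairings below 10 libraries. SEs were derived from the F statistic. The fit was tested on simulated counts with 200 changed genes. It recovered 20.6% of the 2-fold and 74.2% of the 4-fold changes, with 5 false calls among 97. Most 2-fold changes were thus missed, so a gene that did not pass is not shown to be unchanged. Limma 3.58.1 voom, DESeq2 1.42.0, other scalings and filters, a gene span offset (22268 of 22547 names matched the RefSeq gene table) and left-out libraries were alternatives.

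The clock genes, lists and tests were chosen with earlier results of these data known. All 10 clock genes are named. Of the other clock genes the 6 of smallest p are named, with BMAL1, CRY1, RORA, NFIL3 and HLF, and those that passed against control 1 and control 2, chosen after their values were seen. CRY4, CSNK2B, OPN5 and PER1 were not found under these symbols, and HNF4A did not pass the filter. The comparisons with control 3, control 4 and control 5 and with a single control, other tools on title numbers and some correlation subsets were also added after seeing the data.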

Additional observations from a re-analysis of the deposited data

Results flagged for a closer look

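In each of the 20 sets of 5 libraries (10 clock genes in 2 groups), the highest and lowest library was compared with its nearest neighbour on log2 CPM. Chance marks about 1 in 20 such sets. DBP in race 4, at 29.0 CPM, stood above the other race birds by 0.746 of the group's whole range. TEF in control 1, at 49.5 CPM, stood below the other controls by 0.758 of the range. BHLHE40 in control 4 did not reach the critical value of 0.71.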

How the results depend on the processing

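The count of all genes past the threshold, 0, became 261 by DESeq2, 40 without control 1 and control 4, 3416 without control 3, control 4 and control 5, and 106 without control 1 and control 2. With control 2 or control 1 as the only control it was 296 or 6794, with 0 or 7 clock genes and 1 or 27 other clock genes. By title numbers it was 3 (edgeR), 111 (DESeq2) or 1 (limma voom), and 0 to 1 with 1 library left out (1 without control 4). Apart from those, clock genes passed only without control 3, control 4 and control 5 (5) and by title numbers with DESeq2 (1), among the settings run, and 0 to 0 with 1 library left out. Other clock genes passed in number 1 by DESeq2 and again 1 with title numbers, 9 without control 3, control 4 and control 5, and 0 to 0 with 1 library left out.

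The clock median of 0.10 was 0.26 without control 3, control 4 and control 5. It was -0.0025 without control 1 and control 4, and -0.0070 without control 1 and control 2. With control 2 or control 1 as the only control it was -0.059 or 0.36, and with 1 library left out 0.02 to 0.14. The median of other clock genes, 0.07, was 0.16 by library size scaling, 0.24 without control 3, control 4 and control 5, -0.043 with gene span offsets, 0.32 with control 1 as the only control, and 0.02 to 0.12 with 1 library left out. Library size scaling moved the median of all genes from -0.03 to 0.07, and clock values with it. The causes were not tested.

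Signs turned as follows. Without control 1 and control 2, CLOCK stood at -0.11, NPAS2 at -0.028, PER2 at -0.14, NR1D1 at 0.88, BHLHE41 at 0.015 and HLF at -0.14. Without control 1 and control 4, NPAS2 stood at -0.030, NR1D1 at 0.18 and TEF at -0.052. NPAS2 was -0.0068 by RLE scaling and -0.0071 by DESeq2, and with gene span offsets NPAS2, NR1D1 and HLF were -0.15, 0.066 and -0.070. NR1D1 was 0.091 by library size scaling and by limma voom. Without control 3, control 4 and control 5, RORB and NFIL3 stood at 0.74 and 0.39. With control 2 as the only control, NPAS2, TEF, RORB and NFIL3 stood at -0.055, -0.062, 0.32 and 0.45, and with control 1, RORB and NFIL3 at 1.28 and 0.32. By title numbers BHLHE40, RORB and NFIL3 stood at 0.85, 1.81 and 0.69 by edgeR, 0.84, 1.81 and 0.68 by DESeq2, and 0.42, 1.19 and 0.67 by limma voom. With 1 library left out, NPAS2 ran from -0.033 to 0.078, NR1D1 from -0.40 to 0.34, TEF from -0.0012 to 0.29, RORB from -1.71 to 0.060, NFIL3 from -0.33 to 0.0074 and HLF from -0.088 to 0.33.

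Ratios passed in number 1 by title numbers and 0 to 0 with 1 library left out. PER2 to PER3 stood at -0.19 without control 1 and control 4 and -0.39 without control 1 and control 2, NR1D1 to NR1D2 at 0.082 and 0.57, CLOCK to NPAS2 at -0.10 in the second case, and BHLHE40 to BHLHE41 at 0.036 in the first and 0.59 by title numbers. With 1 library left out PER2 to PER3 ran from -0.19 to 0.37 and NR1D1 to NR1D2 from -0.59 to 0.14. Correlations passed in number 3, and 0 without control 1 and control 4 or without control 3, control 4 and control 5, where fewer libraries remain; r of DBP and TEF ran from -0.83 to 0.091 with 1 library left out. No paired analysis was possible because the labels number the birds in 1 series across both groups, and the numbers 1 to 5 used here only name libraries in record order. Each clock gene had at least 225 reads in every library.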
